A study of Homo sapiens with 3 samples.

Results

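The 10 genes described here, CD24, CD44, PROM1, ALDH1A1, ALDH1A3, KIT, SOX2, SOX9, NANOG and BMI1, are used as markers of cancer stem cells. They were chosen by name from a list of such markers, with earlier results of these data known. Each gene was read from every array probe set that carries only that gene's symbol. The arrays measured 19775 genes in this way. Of the 10 markers, 9 had a probe set of their own, 32 probe sets in all.

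SKOV-3 is a human epithelial ovarian cancer cell line. The cells were transduced by lentivirus with 1 of 2 shRNAs against G9a (G9a shRNA1 and G9a shRNA2) or with an shRNA that targets luciferase as the control (Luc shRNA), and all 3 groups were selected with puromycin and used as stably transduced cultures. Each group was hybridized to 1 Affymetrix array, so both G9a shRNA arrays are compared with the same control array, there is no replicate error and no p-value is given. Cells without any shRNA were not analysed here. Values are MAS5 signals, the linear brightness that Affymetrix software assigns to a probe set, and a change is the log2 ratio of a G9a shRNA array to the Luc shRNA array, where -1 and 1 mark 2-fold. A gene was read at its brightest probe set, and a probe set passed the filter when the highest of its 3 signals reached 12.0, the median of all values.

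Cancer stem cells are tumor cells that can renew themselves and seed new tumors, and in ovarian cancer they are usually sorted by surface proteins or by aldehyde dehydrogenase activity. CD44 is a receptor for hyaluronan, CD24 is a small glycosylated surface protein, PROM1 (CD133) is a membrane glycoprotein and KIT (CD117) is the receptor tyrosine kinase for stem cell factor. ALDH1A1 and ALDH1A3 oxidize retinal to retinoic acid, SOX2, SOX9 and NANOG are transcription factors of stem and progenitor cells, and BMI1 is a subunit of Polycomb repressive complex 1. G9a, encoded by EHMT2, is a histone methyltransferase that places repressive methyl groups on lysine 9 of histone H3.

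EHMT2 read 182 on the Luc shRNA array, 29.7 on the G9a shRNA1 array and 79.2 on the G9a shRNA2 array, so the targeted gene was lower with both shRNAs and lowest with G9a shRNA1 (log2 ratio -2.62 and -1.20). Its second probe set past the filter gave 27.6, 23.9 and 16.4, with the order of the shRNA arrays turned (-0.21 and -0.75). The epithelial markers KRT8, KRT18, KRT19, EPCAM, ERBB2 and PAX8 all passed the filter, 6 of 6, and the ERBB2 signal, which is high in this line, lay between 1420.5 and 1828. KRT19, a keratin of simple epithelia, read 13.4, 49.9 and 48.2. It was the only epithelial marker more than 2-fold higher with both shRNAs (1.90 and 1.84), beside 2.57% of all genes past the filter. Averaged over all KRT19 probe sets the ratios were 0.23 and 1.06. EPCAM was at 1.06 and 0.98, KRT8 at 0.36 and 0.70, KRT18 at 0.13 and 0.40, PAX8 at -0.12 and 0.13 and ERBB2 at -0.36 and -0.02. The part of these epithelial genes in the stem cell marker results was not tested. None of 3 leukocyte markers passed the filter, with summed signals from 8.37 to 14.7, and 1 of 3 endothelial markers (PECAM1), 1 of 3 fibroblast markers (DCN) and 1 of 1 red cell marker (HBB) did, with summed signals from 13.3 to 38.4 for the endothelial and fibroblast lists and from 10.9 to 25.6 for HBB. Between the G9a shRNA arrays the log2 ratios differed with an SD of 0.24 over the 8348 genes past the 75th percentile of all values (89.7) and of 0.87 over the 4844 genes between the median and that percentile. The ratio of 3′ to 5′ actin control signals, a measure of RNA and labelling quality, was 3.68 on the Luc shRNA array and 1.83 and 1.47 on the shRNA1 and shRNA2 arrays, whereas the GAPDH ratio was 1.12 to 1.15. Its part in the results was not tested.

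Of the 9 markers measured, 6 passed the filter: CD24, CD44, KIT, ALDH1A1, ALDH1A3 and SOX9. KIT was the only marker more than 2-fold lower with both shRNAs, 1 of 6, where 1.66% of the 13192 genes past the filter were. None of the 6 was more than 2-fold higher with both, where 2.57% of genes were. With G9a shRNA1 alone 3 markers were more than 2-fold lower (CD24, KIT and ALDH1A1), beside 5.1% of genes. ALDH1A1 passed the filter only through the control array, where it was high, so that its lower ratio followed from the filter, and nothing is read from its place in this count. With the same shRNA SOX9 was more than 2-fold higher, beside 4.21% of genes. With G9a shRNA2 alone KIT was more than 2-fold lower, beside 3.58% of genes, and no marker was higher, beside 4.35%. Over the 9 measured markers, those under the filter included, the median of the mean log2 ratio of both shRNAs was -0.13, beside 0.04 over all genes. In cultured cells, fewer cells with a marker and less RNA per cell cannot be told apart by these values.

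**Figure D1:**
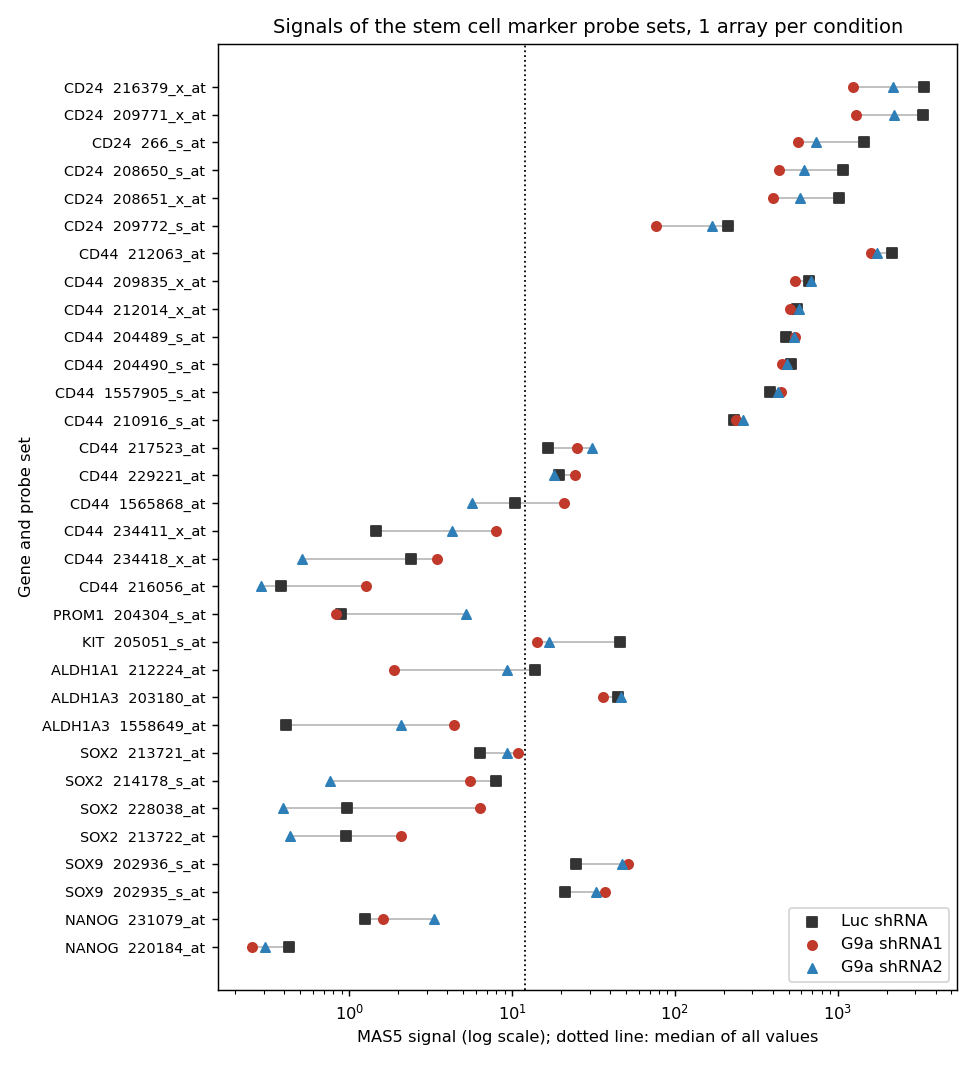
MAS5 signal (log axis) of the 32 marker probe sets, one symbol per array for Luc shRNA, G9a shRNA1 and G9a shRNA2, with the median of all values (12.0) as a dotted line. All 6 CD24 probe sets read highest with Luc shRNA and lowest with G9a shRNA1, the 7 bright CD44 probe sets lie close together, and the PROM1, SOX2 and NANOG probe sets lie left of the line.

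CD24 was lower with both G9a shRNAs at each of its 6 probe sets, past 2-fold with G9a shRNA1 and short of it with G9a shRNA2. The brightest probe set, 209771_x_at, gave 3367 in the control, 1306 in the G9a shRNA1 cells and 2229 in the G9a shRNA2 cells. The control array was the highest and the G9a shRNA1 array the lowest, with log2 ratios of -1.37 and -0.60. Probe set 216379_x_at read 3387, 1241 and 2191 on the same arrays (-1.45 and -0.63). Probe set 266_s_at read 1447, 571 and 739, with the shRNA2 ratio nearest to 2-fold (-1.34 and -0.97). Each of these probe sets ranked the arrays in the same order, as did the other 3. Probe sets 208650_s_at (1082, 435 and 619) and 208651_x_at (1022, 398 and 591) had nearly the same ratios, -1.32 and -0.80 for the former and -1.36 and -0.79 for the latter. The dimmest, 209772_s_at, read 212, 77.0 and 168 and had the weakest ratio with shRNA2 (-1.46 and -0.33).

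Across the 6 CD24 probe sets the ratios with G9a shRNA1 spanned only -1.46 to -1.32, while those with G9a shRNA2 spanned -0.97 to -0.33. All 6 were past the 75th percentile, the brighter class, in which 1.98% of genes were more than 2-fold lower with G9a shRNA1 and 2.11% (176 of 8348) were at least as low as CD24 with both shRNAs. The shRNA1 ratio of CD24 was 0.77 below its shRNA2 ratio on the log2 scale, where the SD of that difference over the class was 0.24. EHMT2 was also lower with shRNA1 than with shRNA2 at its brightest probe set. The CD24 probe sets carry the suffixes _s_at and _x_at, which Affymetrix gives to sets whose probes can match more than 1 transcript, and CD24 has processed pseudogenes of near-identical sequence, so the 6 sets are not independent measurements of 1 transcript.

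The genes past the 75th percentile whose pair of log2 ratios lay nearest to that of CD24, by Euclidean distance over the 2 ratios, were PLOD2, TMEM133 and ACKR3. PLOD2, a lysyl hydroxylase that prepares collagen for cross-linking, read 740 with Luc shRNA, 277 with shRNA1 and 485 with shRNA2 (-1.42 and -0.61, distance 0.0542). TMEM133 read 255, 103 and 169 (-1.30 and -0.59, distance 0.0672), and ACKR3, an atypical receptor for the chemokine CXCL12, read 96.6, 36.5 and 67.6 (-1.40 and -0.52, distance 0.0876). The choice by nearness of ratios fixes that they share the array order of CD24.

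CD44 differed little between the arrays. The brightest of its 13 probe sets, 212063_at, read 2155 with Luc shRNA, 1606 with shRNA1 and 1753 with shRNA2. The control was the highest, by less than 2-fold (-0.42 and -0.30), and 7.75% of genes past the 75th percentile were at least as low with both shRNAs. The other 6 CD44 probe sets in that class went both ways. Probe sets 209835_x_at (671, 548 and 687; -0.29 and 0.03) and 212014_x_at (559, 508 and 581; -0.14 and 0.06) were lowest with shRNA1 and highest with shRNA2. Probe set 204490_s_at (517, 458 and 490.5; -0.18 and -0.08) was lower with both. The remaining 3 of the 7, 204489_s_at (484, 550 and 542; 0.18 and 0.16), 1557905_s_at (387, 451 and 433; 0.22 and 0.16) and 210916_s_at (232, 238 and 263; 0.04 and 0.18), were higher with both. Over these 7 probe sets the ratios spanned -0.42 to 0.22 with G9a shRNA1, 4 lower and 3 higher, and -0.30 to 0.18 with G9a shRNA2, 2 lower and 5 higher. Quantile normalization moved the genes of this class by -0.13 with G9a shRNA2, close to the size of the positive CD44 ratios with that shRNA.

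Of the 6 dimmer CD44 probe sets, 3 passed the filter and 3 did not. Probe set 217523_at read 16.5, 25.1 and 31.2, highest with shRNA2 (0.60 and 0.91). Probe set 229221_at read 19.3, 24.3 and 18.0 (0.33 and -0.10), and 1565868_at read 10.4, 21.0 and 5.70 (1.01 and -0.87), so these 2 lay on opposite sides of the control with the 2 shRNAs. The latter passed the filter only through the G9a shRNA1 array, where it was high, and nothing is read from its ratios. CD44 is spliced into many isoforms, and which isoforms each probe set detects is not given in the sources used here. No CD44 probe set past the filter was more than 2-fold away from the control with both shRNAs.

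**Figure D2:**
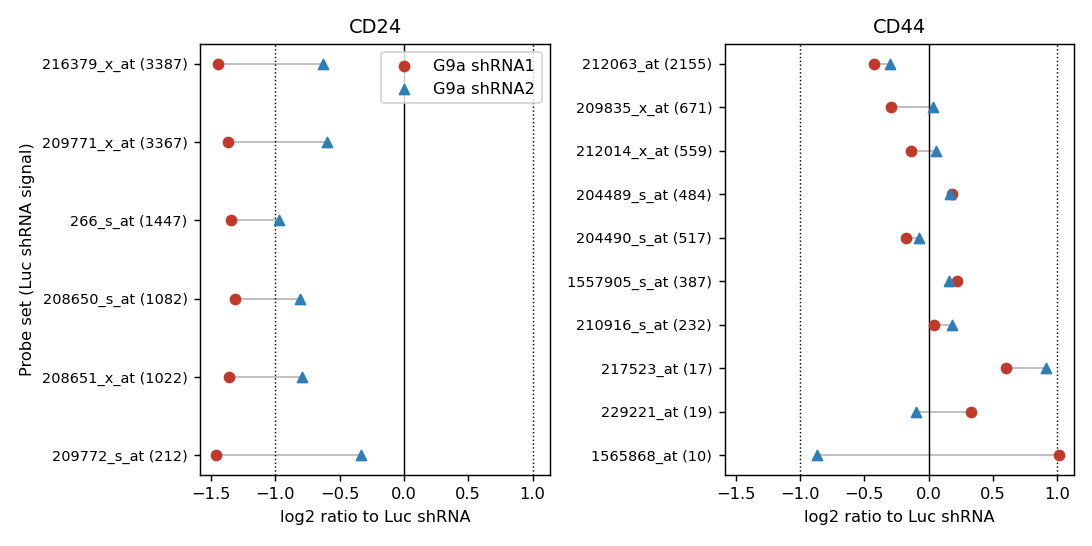
Log2 ratio to Luc shRNA for G9a shRNA1 as circles and for G9a shRNA2 as triangles, shown for the CD24 probe sets (left) and the CD44 probe sets past the filter (right), with the Luc shRNA signal in brackets and dotted lines at 2-fold. All 6 CD24 probe sets lie past 2-fold with G9a shRNA1 and short of it with G9a shRNA2, whereas the 7 brightest CD44 probe sets lie between -0.42 and 0.22.

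KIT was lower with both shRNAs by a like amount. Its single probe set, 205051_s_at, read 46.1 in SKOV-3/Luc shRNA cells, 14.2 with shRNA1 and 17.0 with shRNA2. Both G9a shRNA arrays were close to each other and well under the control, 3.25-fold and 2.72-fold lower (log2 ratio -1.70 and -1.44). These signals lie between the median and the 75th percentile of all values, where 3.72% of genes were more than 2-fold lower with both shRNAs and 1.71% (83 of 4844) were at least as low as KIT with both. Both G9a shRNA signals of KIT remained above the median, so raising low signals to the median did not move its ratios, and after quantile normalization they were -1.78 and -1.52.

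The promoter of KIT is shown because KIT was the only marker past 2-fold with both shRNAs. The arrays do not measure this window, and nothing is drawn from it about G9a. It is the RefSeq sequence of GRCh38.p14, chr4:54657707-54657956, plus strand, the 250 bases before the annotated start of the gene, with each CG dinucleotide in capitals.
KIT: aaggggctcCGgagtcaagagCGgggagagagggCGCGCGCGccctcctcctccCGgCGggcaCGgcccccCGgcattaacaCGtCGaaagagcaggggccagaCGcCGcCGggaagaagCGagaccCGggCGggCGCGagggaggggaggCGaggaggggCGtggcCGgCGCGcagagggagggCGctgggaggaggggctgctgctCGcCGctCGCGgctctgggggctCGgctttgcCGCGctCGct
These 250 bases hold 34 CG dinucleotides and are 76.4% G or C. The full 300-base window, which adds 50 bases after the start, holds 38, and 9.91% of 35116 RefSeq promoter windows of that length held at least as many. In the windows of the other markers the CG count was 36 to 65 for BMI1 (2 windows), 46 for ALDH1A3, 21 to 36 for CD24 (3 windows), 6 to 32 for PROM1 (4 windows), 20 for SOX2, 18 for CD44, 7 for ALDH1A1 and 5 for NANOG. The sources used here held no promoter window for SOX9. CG was searched as these 2 letters, which read the same on both strands.

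Genes of the KIT pathway were read from a list of 20, of which 18 were measured and 17 passed the filter. PIK3R1, the regulatory subunit of PI 3-kinase that binds activated receptors, was the only gene more than 2-fold lower with both shRNAs. This was 1 of 17, beside 1.66% of all genes past the filter. None was more than 2-fold higher with both, beside 2.57%. Nothing is read from counts this small. PIK3R1 read 285 with Luc shRNA, 85.0 with shRNA1 and 136 with shRNA2 (-1.74 and -1.06). The kinase FYN (-1.07 and -0.56) and the docking protein GAB2 (-1.19 and -0.25) were past 2-fold with G9a shRNA1 only, FYN not so with the mean over all its probe sets (-0.63 and -0.80). KITLG, which encodes stem cell factor, read 122, 170 and 134, highest with shRNA1 (0.47 and 0.13, or 0.46 and -0.03 after quantile normalization). With the mean over all its probe sets KITLG was at 0.61 and 0.96, highest with shRNA2. SOCS1, an inhibitor of cytokine signaling, was on opposite sides of the control (-0.37 and 1.18). The median over the measured genes of the list was 0.01, beside 0.04 over all genes.

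ALDH1A1 and ALDH1A3 were dim. ALDH1A1 read 13.8 with Luc shRNA, 1.88 with shRNA1 and 9.34 with shRNA2 at its single probe set. The control alone was above the median of all values, and both G9a shRNA arrays were under it (-2.88 and -0.56). With signals under the median raised to it, both ratios became -0.20. ALDH1A3 read 44.9, 36.3 and 46.6 at 203180_at, lowest with shRNA1 and highest with shRNA2 (-0.31 and 0.05). After quantile normalization both of these ratios were negative (-0.34 and -0.06). The second ALDH1A3 probe set was under the filter on all arrays.

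Of 19 aldehyde dehydrogenase genes, ALDH1A1 and ALDH1A3 included, 14 passed the filter and none was past 2-fold in one direction with both shRNAs. By the same rule 1.66% of all genes past the filter were lower and 2.57% higher. Nothing is read from a count of none here or in the lists below. The list median was -0.12. Among the brighter members, ALDH1B1, a mitochondrial enzyme, read 224, 162 and 158 (-0.47 and -0.50). ALDH18A1, which makes a precursor of proline (-0.26 and -0.13), ALDH7A1, which acts in lysine breakdown (-0.29 and -0.09), and ALDH6A1, which acts in valine breakdown (121, 93.5 and 121 on the 3 arrays), were all within 2-fold of the control. Averaged over every probe set of the gene, the ratios turned sign for ALDH1B1 (0.15 and 0.16), for ALDH6A1 (0.45 and 0.57) and, with shRNA2, for ALDH18A1 (0.18) and ALDH7A1 (0.07).

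Genes of retinoic acid signaling, the product pathway of the ALDH1A enzymes, gave 15 of 17 measured genes past the filter, with a list median of 0.03. None was past 2-fold with both shRNAs, beside 1.66% lower and 2.57% higher of all genes past the filter. The retinol dehydrogenase RDH10 read 249, 364 and 389, higher with both (0.54 and 0.64), and RDH11, another retinoid reductase and dehydrogenase, was slightly lower with both (-0.31 and -0.17). The receptor RARA (0.07 and 0.53) and the retinoic acid carrier CRABP2 (-0.69 and 0.03, the latter -0.13 after quantile normalization) differed from the control with 1 shRNA more than with the other. For RARA this held at the brightest probe set only, since the mean over all its probe sets was 0.85 and 0.71.

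SOX9 was the only marker past the filter that read higher with both shRNAs at every probe set. Probe set 202936_s_at gave 24.7 with Luc shRNA, 51.7 with shRNA1 and 47.2 with shRNA2. Both G9a shRNA arrays were above the control, with shRNA1 just past 2-fold and shRNA2 just short of it (1.06 and 0.94). Probe set 202935_s_at read 21.0, 37.3 and 32.6 in the same order (0.82 and 0.63). In the class between the median and the 75th percentile, 6.50% of genes (315 of 4844) were at least as high as SOX9 with both. With each array centred on its median the shRNA1 ratio of 202936_s_at was 0.99, under 2-fold.

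Of 19 SOX genes 9 passed the filter, and the list median was 0.17. None was past 2-fold with both shRNAs, beside 1.66% lower and 2.57% higher of all genes past the filter. SOX4, a developmental factor often abundant in carcinoma cells, read 535, 320 and 467, lower mainly with G9a shRNA1 (-0.74 and -0.20). SOX13 was at 0.33 and 0.80, but at -0.15 and -0.14 with the mean over all its probe sets, and SOX17, a factor of endoderm and of the reproductive tract, read 268, 247 and 384 (-0.12 and 0.52). SOX12 was lower with shRNA1 and higher with shRNA2 (-0.30 and 0.25).

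PROM1 with 1 probe set, SOX2 with 4 and NANOG with 2 were under the filter on all 3 arrays. With the dim probe sets of CD44 and ALDH1A3 these were 11 marker probe sets under the filter, with signals from 0.252 to 10.9, and no ratio is given for them. At this signal over background a difference was not detectable. BMI1 has no value here, because its only probe set also carries the symbol of the readthrough gene COMMD3-BMI1.

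Among 18 measured pluripotency genes 13 were under the filter, SOX2 and NANOG included, and none of the 5 past it was past 2-fold with both shRNAs. Of all genes past the filter 1.66% were lower and 2.57% higher by this rule. KLF4, a zinc finger factor, read 307 with Luc shRNA, 565 with shRNA1 and 554 with shRNA2. Both G9a shRNA arrays were above the control by a like amount (0.88 and 0.85). MYC read 428, 701 and 590, also higher with both (0.71 and 0.46), and TFCP2L1 differed little (-0.16 and -0.04). The list median of 0.62 includes the 13 genes near the background.

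The genes of Polycomb repressive complex 1, the complex of BMI1, numbered 15 measured, and all 15 passed the filter. None was past 2-fold with both shRNAs, beside 1.66% lower and 2.57% higher of all genes past the filter. The list median was 0.21. The subunits PCGF1 (0.32 and 0.82), PCGF6 (0.25 and 0.60) and RYBP (0.38 and 0.48) were higher with both shRNAs, all within 2-fold. PHC2 was at 0.02 and 0.50, but the shRNA1 ratio was -0.05 with median centring, and the mean over all its probe sets was -0.76 and -0.72. RYBP, which binds the RING1 proteins, read 925, 1200.3 and 1288.

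Among 15 CD44 partners past the filter, only ESRP1 was past 2-fold with both shRNAs. It was higher, beside 2.57% of all genes past the filter, and nothing is read from a count this small. ESRP1, an epithelial splicing factor that favors the variant exons of CD44, read 18.5 with Luc shRNA, 41.2 with shRNA1 and 39.6 with shRNA2. Both G9a shRNA arrays were above the control (1.15 and 1.09), with the shRNA2 ratio at 0.97 after quantile normalization. The proteoglycan VCAN (-0.71 and -0.49), the proteoglycan core protein SRGN (-0.37 and -0.62), the cytoskeletal linker RDX (-0.40 and -0.19) and the CD44 ligand SPP1 (-0.52 and -0.01, the latter 0.19 over all its probe sets) were lower, all within 2-fold. The list median was -0.01.

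Other surface markers of stem cells showed no gene past 2-fold with both shRNAs among 12 past the filter of 20 measured, with a median of -0.21. Of all genes past the filter 1.66% were lower and 2.57% higher by this rule. EPCAM, the epithelial adhesion protein, read 1128, 2350.4 and 2226, just past 2-fold higher with G9a shRNA1 and just short of it with G9a shRNA2 (1.06 and 0.98, or 0.99 and 0.96 with median centring). ALCAM, also called CD166, read 2580.2, 1415 and 1804, lower with both (-0.87 and -0.52). ROR1, a receptor for WNT5A (-0.55 and -0.44), was lower with both, and PODXL, a sialomucin (-0.57 and 0.09, the latter -0.02 after quantile normalization), was lower with shRNA1.

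**Figure D3:**
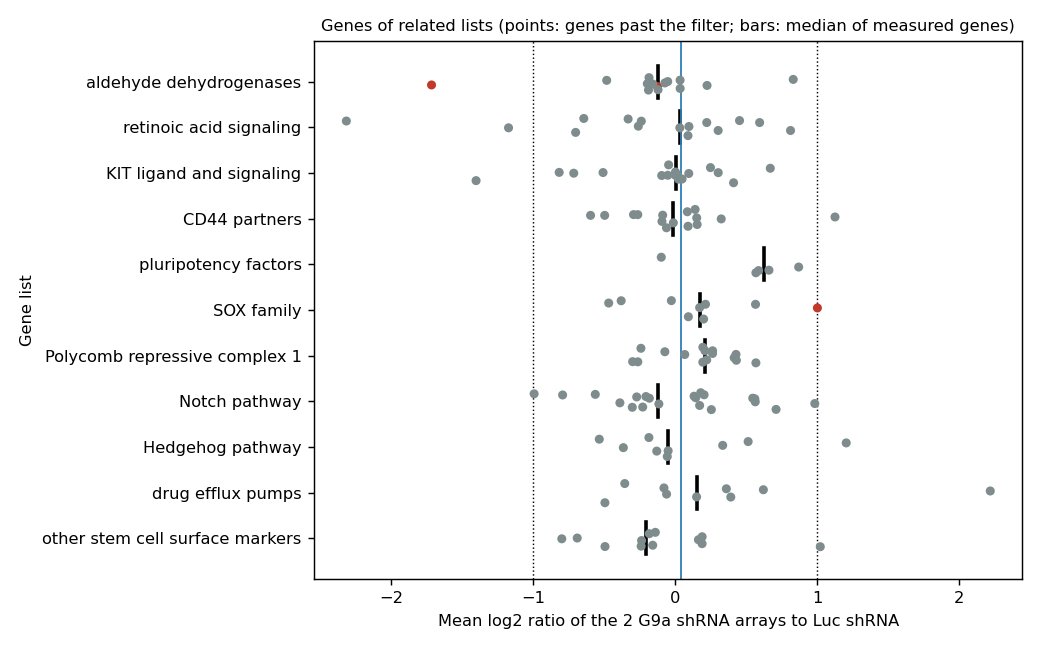
Mean log2 ratio of the 2 G9a shRNA arrays to Luc shRNA for the genes past the filter in 11 related lists (points, with members of the 10 markers in red); black bars are list medians over all measured genes, the blue line is the median of all genes (0.04) and dotted lines mark 2-fold. Most points lie between the dotted lines, and the list medians run from -0.21 to 0.62, the latter for the pluripotency factors, of which 13 of 18 were near the background.

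Drug efflux pumps, which mark the dye-excluding side population, had 9 genes past the filter and a list median of 0.15. Of these 9, 1 was past 2-fold higher with both shRNAs, beside 2.57% of all genes past the filter. That gene, ABCC2, read 3.28, 18.1 and 12.9 (2.46 and 1.97). Its control signal was under the median, and it passed the filter only through the G9a shRNA arrays, where it was high. Its higher ratios followed from the filter, and nothing is read from its place in this count. With low signals raised to the median the ratios of ABCC2 were 0.60 and 0.10. ABCG2, the pump most used to define a side population, read 91.1, 105 and 130 (0.20 and 0.52). ABCC10 (0.62 and 0.62) and ABCC5 (0.43 and 0.35) were higher and ABCC4 (-0.51 and -0.20) lower, all within 2-fold.

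In the Notch pathway 21 of 24 genes passed the filter, with a list median of -0.12. None was past 2-fold with both shRNAs, beside 1.66% lower and 2.57% higher of all genes past the filter. NUMBL, an adaptor related to the Notch inhibitor NUMB, came nearest, with 290 on the Luc shRNA array, 142 with shRNA1 and 149 with shRNA2 (-1.03 and -0.96). After quantile normalization NUMBL was past 2-fold lower with both (-1.04 and -1.10), and over all its probe sets the mean was -0.68 and -0.38. The coactivator MAML2 (-1.07 and -0.52) was past 2-fold lower with shRNA1 at its brightest probe set, but the mean over all its probe sets was 0.31 and 0.89. The Notch target HEY1 was slightly lower (-0.37 and -0.17), and NRARP, another target, was higher (0.82 and 0.59). In the Hedgehog pathway 9 of 15 measured genes passed the filter, none past 2-fold with both and none past the 75th percentile, and the median was -0.05. The shares over all genes are those given for the Notch list.

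The ratios of CD24, KIT and SOX9 stood in different relations between the shRNAs. KIT and SOX9 had like ratios with both, differing by 0.26 and 0.13 on the log2 scale, where the SD in their signal class was 0.87. CD24 had a larger change with G9a shRNA1, the shRNA with the lower EHMT2 signal at its brightest probe set, and the part of the EHMT2 level in this was not tested.

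**Figure D4:**
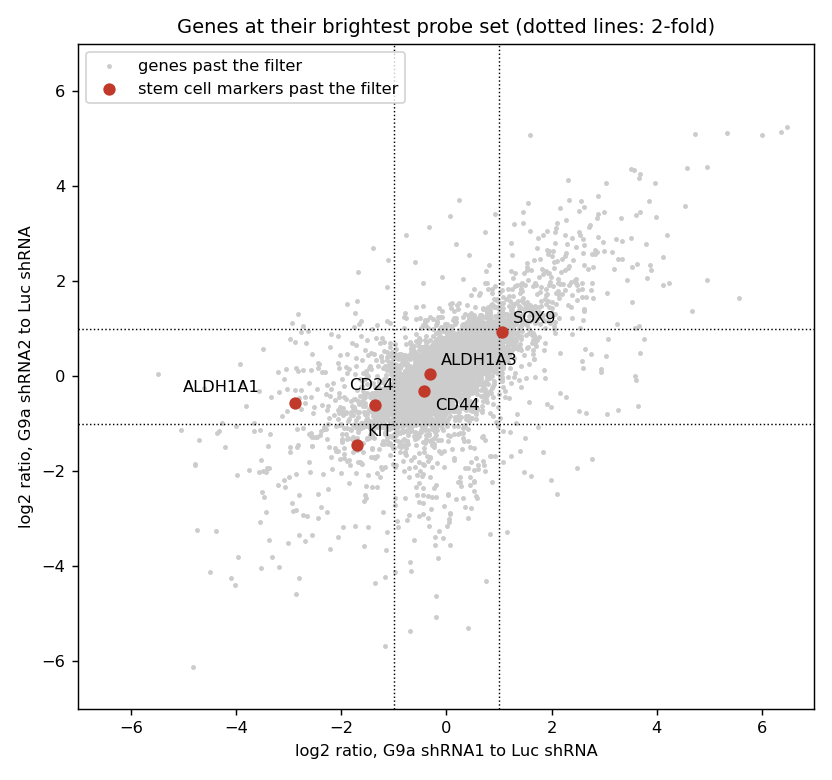
Log2 ratio with G9a shRNA1 (horizontal) against G9a shRNA2 (vertical) for the 13192 genes past the filter (grey) and the 6 markers past it (red), with dotted lines at 2-fold. KIT lies in the lower left corner field past both lines, CD24 lies past the line for G9a shRNA1 only, as does ALDH1A1, which passed the filter through the control array alone and is at -0.20 on both axes with low signals raised to the median, SOX9 lies at the crossing of the upper right lines, and both axes share the same control array.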

How the data were processed

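The authors hybridized RNA from SKOV-3 cells, stably transduced by lentivirus and selected with puromycin, to Affymetrix U133 Plus 2.0 whole-genome arrays, 1 per group (Luc shRNA, G9a shRNA1, G9a shRNA2). The deposited values are MAS5 signal intensities on a linear scale for 54675 probe sets; the version and settings of MAS5 are not given in the sources used here, and the values were used as deposited. The array annotation gave 41097 probe sets 1 gene symbol, 1801 several and 11777 none, and symbols were updated by Entrez identifier (for 54 probe sets the identifier was not in the gene table). Files name no genome build.

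A gene was read at its brightest probe set, by the mean of the log2 signals, and the filter asked that the highest of the 3 signals reach the median of all values (12.0). With 1 array per condition no test was run: more than 2-fold with both shRNAs served as the call, beside the share of all genes it called. The 2-fold size is that of the study's methods, and asking for both shRNAs was a choice made here. The paper describes changes after depletion with either shRNA. The number of arrays limits the precision. Markers and lists were chosen with earlier results of these data known. Named were all markers at every probe set, EHMT2, from each list the genes past 2-fold with both shRNAs and up to 4 others of the largest mean log2 ratio past the 75th percentile, and the 3 genes nearest to each marker past that percentile and past 2-fold with an shRNA. The results were computed again without a filter, with a stricter filter (75th percentile, 89.7), with low signals raised to the median, with arrays centred on their medians or quantile-normalized, at 1.5-fold and 3-fold, with all probe sets of a gene averaged, and for each shRNA alone. The calculations were tested on simulated data with changes larger than 2-fold at bright probe sets only. That test does not cover 2-fold calls at signals as low as those of KIT, SOX9, ALDH1A1 and ALDH1A3. The calculations ran in Python 3.11.15, with pandas 2.3.3 and numpy 2.4.6 for the tables, scipy 1.17.1, and matplotlib 3.10.9 for the plots.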

Additional observations from a re-analysis of the deposited data

Results flagged for a closer look

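ALDH1A3 and 4 of the 10 CD44 probe sets past the filter lay on opposite sides of the control with the 2 shRNAs, and the difference was not tested, since each shRNA has 1 array. The share of all probe sets past the filter that did so was not computed, so nothing is read from this count. The log2 ratio with G9a shRNA1 minus that with G9a shRNA2 was -0.36 for ALDH1A3 (203180_at). For CD44 it was -0.33 at 209835_x_at, -0.19 at 212014_x_at, 0.43 at 229221_at and 1.88 at 1565868_at. The last had signals from 5.70 to 21.0, near the background. It passed the filter only through the G9a shRNA1 array, where it was high, so nothing is read from its difference. After quantile normalization ALDH1A3 was under the control with both shRNAs (-0.34 and -0.06). That normalization moved genes past the 75th percentile by -0.13 with G9a shRNA2. The shRNA2 ratios of 209835_x_at (0.03) and 212014_x_at (0.06) were smaller than this shift.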

How the results depend on the processing

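The number of markers more than 2-fold lower with both shRNAs was 1 (KIT), and it stayed 1 with no filter, a floor, median centring, quantile normalization, the mean over all probe sets and G9a shRNA2 alone. It was 0 with the filter at the 75th percentile, which leaves CD24 and CD44 only, 3 with G9a shRNA1 alone (CD24, KIT and ALDH1A1, the last of which passed the filter only through the control array and was at -0.20 with the floor), 2 at 1.5-fold (CD24 and KIT) and 0 at 3-fold. The number more than 2-fold higher with both was 0, and 1 with G9a shRNA1 alone or at 1.5-fold (SOX9 in each) and 1 with the mean over all probe sets (ALDH1A3, through a probe set under the filter). The share of all genes called was not computed at 1.5-fold or 3-fold, so nothing is read from the counts at these thresholds. The median over the markers, -0.13, was -0.67 with the filter at the 75th percentile, 0.13 with the mean over all probe sets and 0.05 with G9a shRNA2 alone. Mean log2 ratios of CD24, KIT and SOX9 kept their sign in 6 of 6 alternatives. That of ALDH1A1 did too, but its lower ratio followed from the filter. Some alternatives could not change a sign. KIT and ALDH1A1 have 1 probe set each, the floor cannot move CD24, KIT or SOX9, and each shRNA alone is a part of the same mean. Median centring shifted every ratio by -0.07 with G9a shRNA1 and -0.02 with G9a shRNA2, too little to turn these signs. The shifts by quantile normalization for genes past the 75th percentile, given below, were also small beside the CD24 ratio. The CD44 ratio kept its sign in 5. It was 0.20 with the mean over all probe sets (0.47 and -0.07), 3 of them under the filter. The ALDH1A3 ratio kept its sign in 4. Quantile normalization moved the ratios of genes past the 75th percentile by -0.13 with G9a shRNA2 and 0.01 with G9a shRNA1. No paired analysis was possible because each condition has 1 array, and none could be left out. Signal over background limits KIT, SOX9, ALDH1A1 and ALDH1A3, all under the 75th percentile.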
